A study of Mus musculus with 15 samples.

Results

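Of 31980 DNase I hypersensitive sites (DHS) in secretory progenitors of the mouse intestinal crypt (Sec-Pro), 4395 were overlapped, by 1 bp or more, by no DHS of enterocyte progenitors (Ent-Pro) and by no ATOH1 peak. These 4395 sites are described here. The sites were chosen by measured values, the positions of the peaks in the deposited lists of DHS in Sec-Pro, DHS in Ent-Pro and ATOH1 in Sec-Pro, with 1 library each. By the same lists, 4683 Sec-Pro DHS (14.6%) lay outside the Ent-Pro DHS list, and 288 of these carried an ATOH1 peak. The 4395 sites made up 13.7% of the Sec-Pro DHS. Their names follow the lists: a site missing from the Ent-Pro list is not shown to be closed in Ent-Pro, and a site without an ATOH1 peak is not shown to be free of ATOH1.

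All samples came from C57BL/6 mice, of an age the labels do not give. Sec-Pro were enriched in crypts by treating mice with dibenzazepine (DBZ), an inhibitor of Notch signalling, or by deleting Rbpj, the gene of the DNA-binding protein through which Notch acts. Ent-Pro were crypt cells and enterocytes (ENT) villus cells of Atoh1-/- mice, which make no secretory cells, and goblet cells (GOB) were taken from villi of Rbpj-/- mice. Lgr5+ intestinal stem cells (ISC) were sorted for green fluorescent protein from Lgr5-eGFP-Cre mice. The labels name no sorting step for Sec-Pro, so their purity is unknown. ATOH1 was precipitated with an antibody against FLAG. H3K4me2 was mapped in 1 ISC, 2 Sec-Pro (replicate 1 Rbpj-/-, replicate 2 DBZ), 2 Ent-Pro, 1 GOB and 1 ENT library, and H3K27ac in 1 Sec-Pro and 1 Ent-Pro library. Which Sec-Pro preparation gave the H3K27ac, DHS and ATOH1 lists is not stated, so that lineage and genotype or drug treatment cannot be told apart. The peak lists name no genes, so the labelled cell types could not be checked against marker genes here.

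A DHS is a short stretch of chromatin that DNase I can cut because nucleosomes are loosened or displaced, as at promoters, enhancers and insulators. H3K4me2 is carried by nucleosomes beside promoters and enhancers, including enhancers that are not yet active, and H3K27ac by those beside active ones. ATOH1 is a basic helix-loop-helix transcription factor without which the intestine forms no goblet, Paneth or enteroendocrine cells, and Notch signals repress its gene.

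The sites were weak and narrow within the Sec-Pro list. Score and width come from the assay that chose them and are given as a description. The authors' score, whose scale the files do not name, ran from 2.92 to 75.01 at the sites, with a median of 8.81 and quartiles of 7.79 and 11.1, against a median of 20.6 over all Sec-Pro DHS. Their width ran from 200 to 719 bp with a median of 217 bp, and 1250 of them (28.4%) had the shortest width in the list, 200 bp. The median over all Sec-Pro DHS was 350 bp, of which 7.72% measured 200 bp. The 288 Sec-Pro-only sites with an ATOH1 peak had a median score of 10.6 and a median width of 251.5 bp. Shared sites without ATOH1, the 22746 Sec-Pro DHS that an Ent-Pro DHS overlapped and an ATOH1 peak did not, had a median score of 22.9 and a median width of 378 bp. The sites thus sat at the low end of both measures, below either of these sets. Narrow peaks were also the rule at the 10813 Ent-Pro-only sites without ATOH1, with a median width of 230 bp and 22.9% at 200 bp, so narrowness was shared by sites found in 1 of the DHS lists. Their median score was 8.24 on the scale of the Ent-Pro list.

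**Figure D1:**
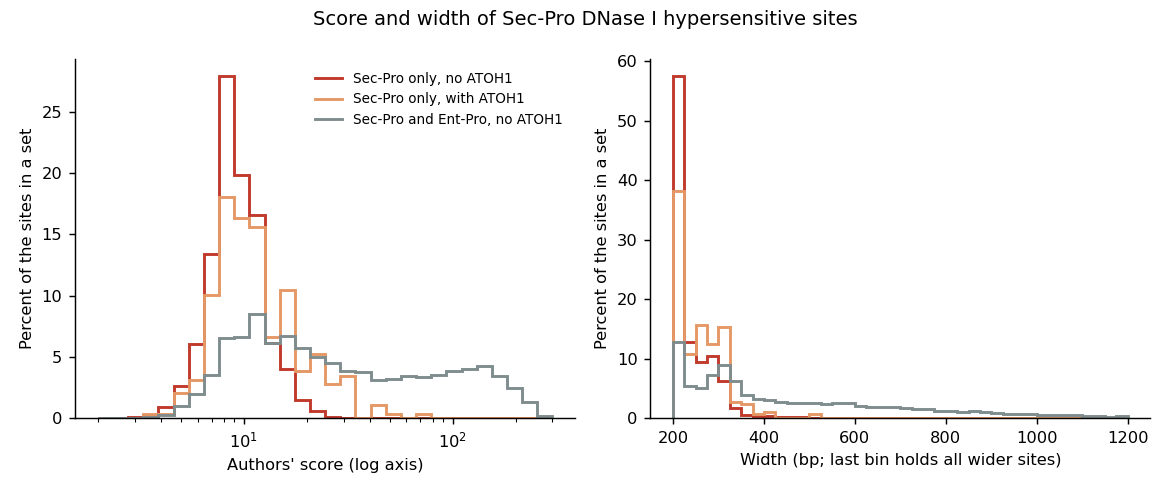
Distribution of the authors' score (left, log axis) and of peak width (right, bp) for the 4395 Sec-Pro-only sites without ATOH1, the 288 with ATOH1 and the 22746 shared sites without ATOH1, as percent of each set per bin. The first set is centred on a score of 8.81 and a width of 217 bp, while the shared sites reach to a score of 286.

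With the Sec-Pro list divided by score into quintiles, 2545 of the sites lay in the lowest quintile and 1583 in the next. They were 39.8% and 24.8% of all DHS there. The middle quintile held 266, the next 1 and the top quintile none. Only 34 of the sites were among the upper 50% of the list. The 5 with the highest scores were unlike one another in their marks. The first, chr1:82286672-82287085 (mm9, score 75.01, 414 bp), stood far above the rest and carried H3K4me2 in all 7 libraries and H3K27ac in neither progenitor. It lay 463 bp from an ATOH1 peak and 487 bp from an Ent-Pro DHS. The next scores were 30.1 at chr5:90245791-90246113 and 29.2 at chr19:41795100-41795412, both without any mark. They were followed by chr8:123044808-123045079 (score 28.4), marked by H3K4me2 in GOB alone, and chr6:86538641-86538901 (score 26.0), marked by H3K4me2 in ENT alone.

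Few of the sites carried a histone mark in any population. Of the 4395, 831 were overlapped by a peak of at least 1 of the 9 mark lists, a share of 18.9% [17.8 to 20.1], against 65.9% of all Sec-Pro DHS. Brackets give Wilson 95% intervals for shares and Wald 95% intervals for odds ratios and for paired differences in percentage points. They cover counting error only. The other 3564 sites (81.1%) had no mark peak in any list. Sites are not replicates, so a test over sites sets list against list and cannot speak for the conditions. For the 15 tests over sites with a single main value, Benjamini-Hochberg adjustment left each on the same side of 0.05.

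Among the 7 H3K4me2 lists, that of ISC marked the fewest and that of GOB the most of the sites, as they also did over all Sec-Pro DHS. H3K4me2 peaks of ISC covered 224 sites, or 5.10% [4.48 to 5.79], where 48.4% of all Sec-Pro DHS were covered. Rbpj-/- Sec-Pro covered 382 sites, or 8.69% [7.89 to 9.56], against 56.6% of all, and DBZ-treated Sec-Pro 497 sites, or 11.3% [10.4 to 12.3], against 60.0%. Ent-Pro replicate 1 covered 488 sites, or 11.1% [10.2 to 12.1], against 60.4%, and replicate 2 covered 370, or 8.42% [7.63 to 9.28], against 55.8%. Each progenitor thus had 1 library near 11% and 1 below 9%, and the libraries of the progenitors overlapped. In the villus, GOB covered 659 sites, or 14.99% [14.0 to 16.1], against 62.7%, and ENT 488 sites, or 11.1% [10.2 to 12.1], against 59.3%. H3K27ac covered 312 sites in Sec-Pro, or 7.10% [6.38 to 7.90], against 44.0%, and 321 sites in Ent-Pro, or 7.30% [6.57 to 8.11], against 46.4%. H3K4me2 in any library covered 789 sites (18.0%, against 65.4% of all Sec-Pro DHS), and H3K27ac in either progenitor 373 (8.49%, against 47.5%). At least 1 of the 6 progenitor libraries marked 668 sites (15.2%, against 63.2%). Sequencing depth is not known, and the mark lists held between 63293 and 92279 peaks. The ISC list covered 33.45 Mb, and the other H3K4me2 lists between 57.0 and 75.04 Mb.

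**Figure D2:**
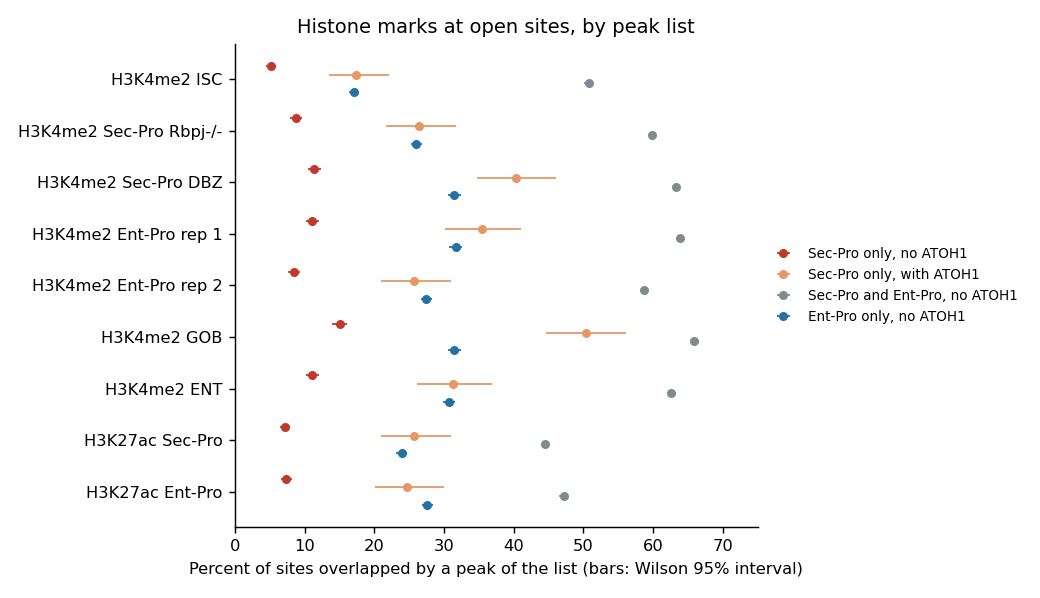
Percent of sites overlapped by a peak of each of the 9 mark lists (horizontal axis; bars are Wilson 95% intervals) in 4 sets of open sites. In every list the Sec-Pro-only sites without ATOH1 have the lowest share, from 5.10% in ISC to 14.99% in GOB.

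The shortage of marks was tested against 3 other sets of open sites. Among shared sites without ATOH1, 15753 of 22746 (69.3%) carried a mark, and the odds of a mark at the 4395 sites were 0.104 times theirs [0.0955 to 0.112]. The Sec-Pro-only sites with ATOH1 were marked at 166 of 288 (57.6% [51.9 to 63.2]), which gave an odds ratio of 0.171 [0.134 to 0.219] (Fisher's exact test, p = 3.1e-44). Ent-Pro-only sites without ATOH1 were marked at 4389 of 10813 (40.6%), which gave an odds ratio of 0.341 [0.314 to 0.371] (Fisher's exact test, p = 4.7e-153). These last sites come from a list that is longer than that of Sec-Pro, with 38595 peaks.

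Marks were scarce within ranges of score as well. In the lowest quintile of the Sec-Pro list, 18.4% [16.9 to 19.9] of the 2545 sites were marked, against 33.0% [31.4 to 34.5] of shared sites without ATOH1 and 50.0% [41.0 to 59.0] of Sec-Pro-only sites with ATOH1. In the next quintile the shares were 18.3% [16.5 to 20.3], 39.2% [37.8 to 40.7] and 57.4% [47.4 to 67.0]. In the middle quintile they were 27.1% [22.1 to 32.7], 66.6% [65.3 to 67.8] and 70.0% [58.5 to 79.5]. Within the range between the quartiles of the scores of the 4395 sites, the log2 odds ratio of a mark against shared sites was -1.29, compared with -3.27 over all scores. It was -2.43 against Sec-Pro-only sites with ATOH1, compared with -2.54 over all scores.

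**Figure D3:**
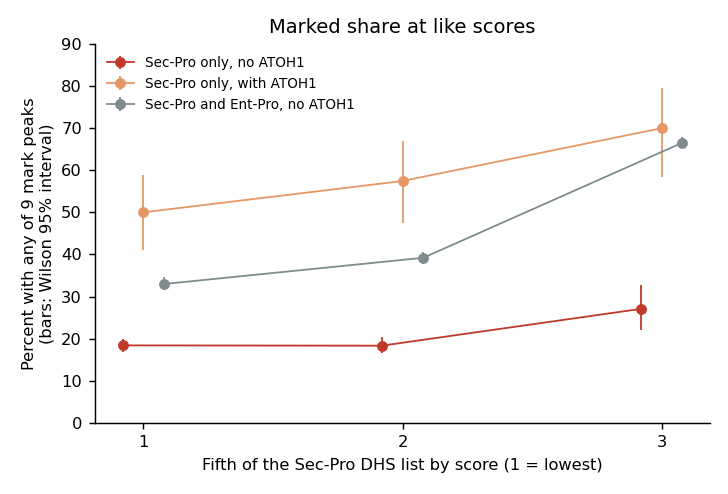
Percent of sites with a peak in any of the 9 mark lists (bars are Wilson 95% intervals) in the lowest 3 quintiles of the Sec-Pro DHS list by score, where all but 1 of the 4395 sites lie. In each quintile the Sec-Pro-only sites without ATOH1 are below both other sets.

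Of the 3564 unmarked sites, 455 (12.8%) had a mark peak within 1 kb and 2185 (61.3%) within 10 kb. With peaks counted within 1 kb of the site, 1286 sites (29.3%) were marked, and within 10 kb 3016 (68.6%). The same shares were 73.5% and 88.5% at shared sites without ATOH1. From an unmarked site, the median distance to the nearest mark peak of any list was 6.82 kb, with quartiles of 2.44 and 17.8 kb. Nucleosome marks can flank an open site without touching it. Peaks of 1 list on both sides within 1 kb were found at 35 of the 3564 unmarked sites (0.982%). The median distance and the flanking peaks were not measured in a comparison set.

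Marked sites ranged from 1 list to all 9, and fewer were marked in all lists than among Sec-Pro DHS at large. Of the 831 marked sites, 203 were marked in 1 list alone (4.62% of the 4395, against 3.36% of all Sec-Pro DHS), and 121 in all 9 lists (2.75%, against 37.2%). All 7 H3K4me2 libraries marked 189 sites (4.30%, against 47.1% of all Sec-Pro DHS). H3K27ac without any H3K4me2 was found at 42 sites (0.956%, against 0.525%), and H3K4me2 without H3K27ac at 458 (10.4%, against 18.4%). After the first site on chromosome 1, the highest-scoring sites with H3K4me2 in all 7 libraries were chr13:51944625-51944863 (score 21.6) and chr7:31337647-31337948 (score 19.9). Both also carried H3K27ac in both progenitors, and they lay 960 and 148 bp from an Ent-Pro DHS.

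The mark peaks at the sites were broad and above the middle of their own lists, as were those at shared sites without ATOH1 and at Sec-Pro-only sites with ATOH1. A wide peak overlaps a site more easily, and where several peaks overlapped a site the highest-scoring was taken. Values above those of the whole list are thus no finding about the sites. The median rank of the GOB peaks that covered a site was the percentile 66.8 of the GOB list by score, and their median width was 815 bp, against 371 bp over that list. For Sec-Pro H3K27ac the percentile was 71.3 and the width 944 bp, against 489 bp. At shared sites without ATOH1 the corresponding percentiles were 88.4 and 87.7, and the widths 1565 and 1244 bp. At Sec-Pro-only sites with ATOH1 the percentiles were 70.8 and 65.7, and the widths 995 and 1029 bp. The sites did not crowd into a few broad peaks: the 659 sites in GOB peaks lay in 653 different peaks.

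Histone marks at the sites differed little between the progenitors, by 0.387 points or less in each of 4 comparisons, none past the threshold of 0.05 with the lists as deposited. This comparison asks whether chromatin open in the Sec-Pro list alone was also marked in Sec-Pro alone. H3K27ac was present in Sec-Pro and not Ent-Pro at 52 sites (1.18%, against 1.11% of all Sec-Pro DHS) and in Ent-Pro and not Sec-Pro at 61 (1.39%, against 3.49%). It was present in both at 260 (5.92%, against 42.9%). Sec-Pro minus Ent-Pro was -0.205 percentage points [-0.679 to 0.269], with an exact McNemar p = 0.452, two-sided (adjusted p = 0.521). With the H3K27ac lists cut by score to equal length, the numbers were 44 and 66 and the difference passed the threshold, at -0.501 points [-0.968 to -0.0331] (exact McNemar p = 0.0448, not adjusted).

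H3K4me2 gave similar values. Lists were set against each other by the width of their shortest peak, which was 146 bp for DBZ-treated Sec-Pro and Ent-Pro replicate 1 and 200 bp for Rbpj-/- Sec-Pro and Ent-Pro replicate 2. DBZ-treated Sec-Pro marked 71 sites that Ent-Pro replicate 1 did not (1.62%, against 1.39%), and the reverse held at 62 sites (1.41%, against 1.75%). The difference was 0.205 points [-0.309 to 0.719] with an exact McNemar p = 0.488. Rbpj-/- Sec-Pro marked 56 sites that Ent-Pro replicate 2 did not (1.27%, against 2.16%), and the reverse held at 44 sites (1.00%, against 1.33%). The difference was 0.273 points [-0.173 to 0.719] with an exact McNemar p = 0.271. Over libraries, the share of sites marked was 10% ± 1.85 (SD, n = 2) in Sec-Pro and 9.76% ± 1.90 (SD, n = 2) in Ent-Pro, with an exact two-sided permutation p = 0.667, where 0.333 is the smallest that 4 libraries allow. Nothing in the labels says whether libraries of a group came from separate animals.

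Requiring both libraries of a progenitor gave 362 sites in Sec-Pro (8.24%, against 56.1%) and 345 in Ent-Pro (7.85%, against 55.3%), a difference of 0.387 points [-0.0242 to 0.798] with an exact McNemar p = 0.0821 (adjusted p = 0.112). With exclusion only where 50% of a site was covered, it passed the threshold, at 0.469 points [0.0431 to 0.895] (exact McNemar p = 0.03896, not adjusted). This value moved with each library. It was 3.46 and 0.842 points without Sec-Pro replicate 1 or 2, and -0.182 and -2.87 without Ent-Pro replicate 1 or 2, since the side left with 1 library meets the weaker requirement. Of the sites with both Sec-Pro libraries, 4 had H3K4me2 in neither replicate of Ent-Pro (0.0910%, against 0.122%), and the opposite held at 8 sites (0.182%, against 0.150%). The 3 highest-scoring of the 4 were chr11:113926233-113926717, chr8:108034247-108034551 and chr4:138309965-138310176. The first had no mark in GOB or ENT, the second had H3K4me2 in GOB and not ENT, and the third in both.

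The balance of H3K27ac differed from that at shared and at Ent-Pro-only sites without ATOH1. At shared sites without ATOH1, H3K27ac in 1 progenitor alone was in Sec-Pro at 239 and in Ent-Pro at 830. The odds of Sec-Pro over Ent-Pro at the 4395 sites (52 and 61) were 2.96 times those [1.99 to 4.40] (Fisher's exact test, p = 2.3e-07). At Ent-Pro-only sites without ATOH1 the numbers were 142 and 539, which gave an odds ratio of 3.24 [2.14 to 4.89] (Fisher's exact test, p = 5.3e-08). One-sided H3K27ac was thus nearer to balance at the sites than in these sets, which leaned towards Ent-Pro. Between the quartiles of the scores of the 4395 sites, it was in Sec-Pro alone at 31 and in Ent-Pro alone at 25. At shared sites without ATOH1 in that range the numbers were 39 and 117 (log2 odds ratio 1.90). All of these odds ratios rest on 1 library a side. At the 288 Sec-Pro-only sites with ATOH1, H3K27ac in 1 progenitor alone was in Sec-Pro at 11 and in Ent-Pro at 8. The balance at the 4395 sites was not tested against that set.

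The sites with the highest scores in each H3K27ac class showed mixed H3K4me2. With H3K27ac in Sec-Pro and not Ent-Pro, the first was chr19:25055304-25055563 (score 18.8), with H3K4me2 in DBZ-treated Sec-Pro, Ent-Pro replicate 2, GOB and ENT. The next, chr10:115978026-115978306, had no H3K4me2, and chr7:5044800-5045058 had it in ENT alone. With H3K27ac in Ent-Pro and not Sec-Pro, the first was chr11:115965326-115965636 (score 23.2), with H3K4me2 in DBZ-treated Sec-Pro, Ent-Pro replicate 1 and GOB. It was followed by chr5:115001201-115001523, without H3K4me2, and chr5:106138786-106139072, with H3K4me2 in Ent-Pro replicate 1 and GOB. With H3K27ac in both progenitors, the first were chr8:89002529-89002851 (score 23.1), the chromosome 13 site named above and chr7:51941038-51941329. Each of these 3 was marked by H3K4me2 in GOB and in ENT.

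**Figure D4:**
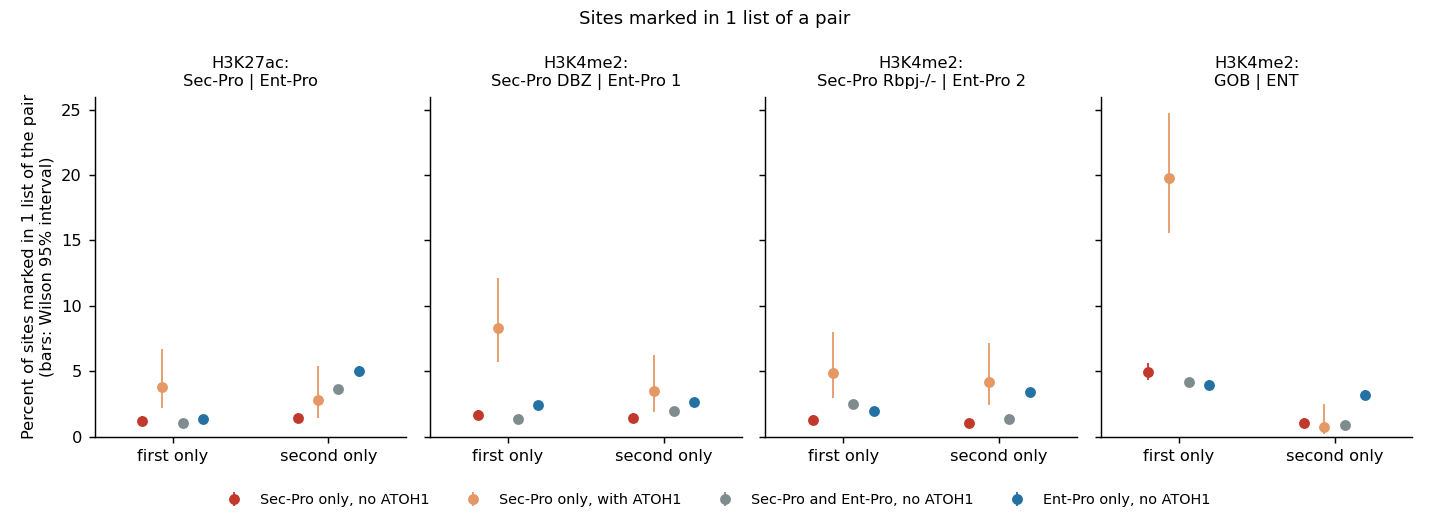
Percent of sites marked in only the first or only the second list of 4 pairs of lists (bars are Wilson 95% intervals) for 4 sets of open sites. The Sec-Pro-only sites without ATOH1 have near-equal values in the 3 progenitor pairs, and 4.94% against 1.05% for GOB and ENT.

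The lists of the mature cells differed, with more of the sites marked in GOB than in ENT. Each list is from 1 library, GOB from Rbpj-/- and ENT from Atoh1-/- mice, so cell type and genotype cannot be told apart. H3K4me2 was present in GOB and not ENT at 217 sites (4.94%, against 4.27% of all Sec-Pro DHS), in ENT and not GOB at 46 (1.05%, against 0.863%), and in both at 442 (10.1%, against 58.4%). GOB minus ENT was 3.89 points [3.18 to 4.605], with an exact McNemar p = 9.8e-28, two-sided. With the upper 50% of the mark lists by score the numbers were 96 and 39 and the difference was 1.30 points. Both one-sided shares were close to those of all Sec-Pro DHS, so this excess of goblet cells was not a property of these sites alone. The odds of GOB over ENT were 1.03 times those at shared sites without ATOH1 [0.724 to 1.46], where the numbers were 954 and 208 (Fisher's exact test, p = 0.929).

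The goblet excess was smaller than at Sec-Pro-only sites with ATOH1 and larger than at Ent-Pro-only sites without ATOH1. Sec-Pro-only sites with ATOH1 had H3K4me2 in GOB and not ENT at 57 of 288 and in ENT and not GOB at 2, so the odds at the 4395 sites were 0.166 times theirs [0.0390 to 0.702] (Fisher's exact test, p = 0.00406, adjusted p = 0.00610). Between the quartiles of the scores of the 4395 sites, Fisher's exact test gave p = 0.1297 (log2 odds ratio -2.24). That set had only 2 sites in ENT and not GOB. At the 4551 shared sites with an ATOH1 peak, 138 were in GOB and not ENT (3.03%) and 20 in ENT and not GOB (0.439%). The balance at the 4395 sites was not tested against these, so a smaller excess than at open ATOH1 sites in general is not shown. Ent-Pro-only sites without ATOH1 had 424 in GOB and not ENT and 345 in ENT and not GOB, which gave an odds ratio of 3.84 [2.71 to 5.44] (Fisher's exact test, p = 4.0e-16).

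About 1 in 2 of the 217 sites marked in GOB and not in ENT were unmarked elsewhere. At 112 of them (2.55% of the 4395, against 1.89% of all Sec-Pro DHS) GOB was the only one of the 9 lists with a peak, and ENT was the only one at 17 sites (0.387%, against 0.244%). Of all 1366 Sec-Pro DHS marked in GOB and not ENT, 605 were marked in GOB alone. At shared sites without ATOH1 it was 436 of 954. A mark in GOB alone was thus common outside the 4395 sites too, and the difference was not tested. GOB or ENT marked 163 sites without any progenitor mark (3.71%, against 2.73%). After the chromosome 8 site with a score of 28.4, the highest-scoring sites in GOB and not ENT were chr10:7302169-7302478 (score 24.0), marked in no other list, and the chromosome 11 site at 115965326 named above. After the chromosome 6 site, those in ENT and not GOB were chr2:143887311-143887585 (score 16.5), also marked in ISC, DBZ-treated Sec-Pro and Ent-Pro replicate 1, and chr5:37076339-37076568 (score 16.5), marked in ENT alone.

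ATOH1 peaks lay at a median of 25.3 kb from the sites, with quartiles of 9.06 and 79.4 kb. Since the rule used the ATOH1 list, these distances are a description. Within 1 kb of an ATOH1 peak lay 227 sites (5.16%), within 10 kb 1192 (27.1%) and within 100 kb 3490 (79.4%). For shared sites without ATOH1 the median was 29.6 kb and the same shares were 6.12%, 26.9% and 77.8%. For Ent-Pro-only sites without ATOH1 the median was 29.3 kb and the shares were 4.27%, 24.9% and 79.0%. The 3 sets thus stood at much the same distances from ATOH1.

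Sites nearer to an ATOH1 peak were marked more often. A mark was found at 112 of the 227 sites within 1 kb (49.3% [42.9 to 55.8]), at 25.1% [21.4 to 29.2] between 1 and 5 kb, at 20.7% [18.5 to 23.0] between 5 and 20 kb, at 14.5% [12.8 to 16.3] between 20 and 100 kb, and at 13.3% [11.2 to 15.6] beyond 100 kb. Median scores in these ranges lay between 8.51 and 9.22. Shared sites without ATOH1 fell from 86.4% within 1 kb to 70.3% between 1 and 5 kb, and lay between 64.8% and 69.3% beyond. Split at 5 kb, a distance chosen after these values were seen and so given without a test, 229 of 693 near sites (33.0%) and 602 of 3702 far sites (16.3%) were marked. At shared sites without ATOH1 the shares were 76.2% near and 67.9% far. Among sites more than 1 kb from every Ent-Pro DHS and ATOH1 peak, 92 near sites were marked and 305 were not, against 415 and 2748 far sites, and the log2 odds ratio was 1.00, compared with 1.35 over all.

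H3K4me2 in GOB and not ENT was also more frequent near ATOH1 peaks, with no further fall beyond 20 kb. It was present at 10.6% [7.21 to 15.2] of sites within 1 kb of an ATOH1 peak, 9.01% [6.74 to 12.0] between 1 and 5 kb, 5.17% [4.07 to 6.55] between 5 and 20 kb, 3.46% [2.66 to 4.49] between 20 and 100 kb and 3.65% [2.61 to 5.08] beyond. At the same split it was present at 66 of 693 near sites (9.52%) and 151 of 3702 far sites (4.08%), again as a description. H3K4me2 in ENT and not GOB was present at 7 near sites (1.01%) and 39 far sites (1.05%). At shared sites without ATOH1 the share in GOB and not ENT was 4.80% near and 4.07% far. Among sites more than 1 kb from every Ent-Pro DHS and ATOH1 peak, 39 near sites had the mark in GOB and not ENT and 358 did not, against 114 and 3049 far sites, and the log2 odds ratio was 1.54, compared with 1.31 over all.

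**Figure D5:**
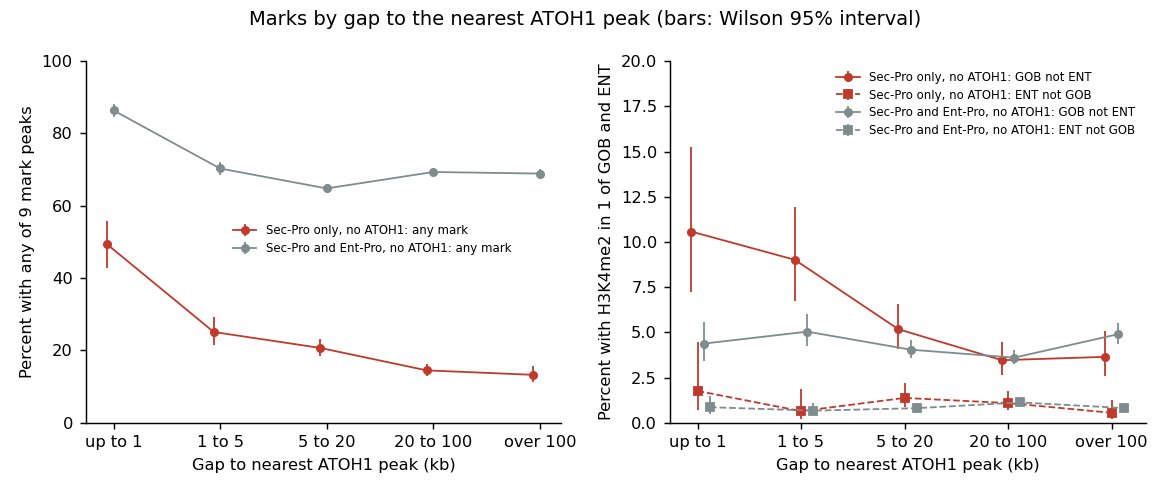
Percent of sites with any of the 9 mark peaks (left) and with H3K4me2 in GOB and not ENT or in ENT and not GOB (right), by the gap to the nearest ATOH1 peak in kb (bars are Wilson 95% intervals). For Sec-Pro-only sites without ATOH1, the share in GOB and not ENT is 10.6% within 1 kb and 3.65% beyond 100 kb, while at shared sites it is between 3.60% and 5.04% in all ranges.

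The 3 sites nearest to an ATOH1 peak differed in their marks. The gap was 17 bp at chr2:118587681-118588082 and 26 bp at chr6:124690816-124691112, both marked in all 9 lists. It was 25 bp at chr17:28414174-28414386, which carried H3K27ac in Sec-Pro and not Ent-Pro and H3K4me2 in GOB alone. The 3 farthest were chr15:18645316-18645515 (6504 kb), chrX:61528900-61529181 (5573 kb) and chr14:93002772-93002971 (5176 kb), all without a mark. The unmarked sites with the highest scores were the sites on chromosomes 5 and 19 named first and chr12:71081830-71082102 (score 25.4). The chromosome 19 site lay 872 bp from an ATOH1 peak and that on chromosome 5 lay 280 kb from one.

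Distances to other open sites are given without a comparison set. The nearest Ent-Pro DHS was at a median of 7.22 kb, and 697 sites (15.9%) had one within 1 kb. The nearest other Sec-Pro DHS was at a median of 9.31 kb. It was a shared site, with or without ATOH1, for 3576 (81.4%), another of the 4395 for 775 (17.6%) and a Sec-Pro-only site with ATOH1 for 44 (1.00%). In the whole list, 14.6% lay outside the Ent-Pro list and 13.7% were of the 4395. The share of 17.6% [16.5 to 18.8] for another of the 4395 lay above that 13.7%, a difference that was not tested. Just inside the rule, chr10:120694473-120694767 and chr2:24462066-24462279 lay 5 bp from an Ent-Pro DHS and chr2:172205810-172206009 lay 7 bp from one, all unmarked and with scores of 11.1, 6.40 and 5.81. Just outside it, chr4:137248214-137248421 was left out by 7 bp of overlap with an ATOH1 peak, and chr11:70418410-70418616 and chr5:113691098-113691366 by 12 bp each, with scores of 6.43, 4.28 and 9.80. The 206 sites within 200 bp of an Ent-Pro DHS or ATOH1 peak had a median score of 9.15 and were marked at 52.4%. The 45 Sec-Pro DHS left out by less than 50 bp of overlap had a median score of 7.41 and were marked at 53.3%.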

How the data were processed

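The data are peak lists from 12 of 15 samples (7 H3K4me2, 2 H3K27ac, 2 DHS, 1 ATOH1), and the 3 inputs were not used here. The submitters' processing notes name build mm9 and the tools MACS2, Bowtie 0.12.7 and CASAVA 1.7, with settings not given in the sources used here. The authors deposited 1 list per library with 5 columns and no header: chromosome, start and end (0-based), peak name and the authors' score, which was used within a list only. Read depth is unknown. Positions are printed 1-based.

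Overlaps were computed in Python 3.11.15 with NumPy 2.4.6, pandas 2.3.3 and SciPy 1.17.1 and tested on simulated data; figures used matplotlib 3.10.9. Sites were compared by Fisher's exact and exact McNemar tests, two-sided, with a threshold of 0.05 and Benjamini-Hochberg adjustment over 15 tests, of which the 2 on the 5-kb split are not reported. Alternatives are in the closing section. The members, lists, tests and 5-kb split were chosen with earlier results of these data known. Regions named are the highest-scoring of each class, and those nearest to or farthest from ATOH1 and Ent-Pro peaks. The gene and promoter tables at hand belong to another build, so no gene was named from a position and no sequence is shown.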

Additional observations from a re-analysis of the deposited data

How the results depend on the processing

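Of 135 recomputed values, 106 kept their direction and side of the threshold or stayed near the main value. The fewer marks against shared sites and against Sec-Pro-only sites with ATOH1 held in all 7 alternatives each. The upper 50% of the Sec-Pro DHS by score left 34 sites, too few for most tests: 32.4% were marked, GOB minus ENT was 8.82 points, DBZ-treated Sec-Pro minus Ent-Pro replicate 1 was -2.94 points, and log2 odds ratios were -0.51 for any mark against Ent-Pro-only sites, -0.54 and -0.89 for the H3K27ac balance against shared and Ent-Pro-only sites, -0.82, -3.17 and 1.7025 for the goblet balance against shared, Sec-Pro-only with ATOH1 and Ent-Pro-only sites, and 1.24 and 1.22 for any mark and the mark in GOB and not ENT within 5 kb of ATOH1. The goblet balance against shared sites, 0.04 as reported, was -0.14 with the Ent-Pro DHS list cut to equal length and -0.68 with the upper 50% of the mark lists (Fisher's exact p = 0.02497); against Sec-Pro-only sites with ATOH1 it was -2.24 between the quartiles of score. The marked share was 14.2% more than 1 kb from the excluding peaks, 13.0% with the upper 50% of the mark lists and 29.3% with marks within 1 kb. With the upper 50% of the mark lists, Rbpj-/- Sec-Pro minus Ent-Pro replicate 2 and both Sec-Pro minus both Ent-Pro libraries were each -0.114 points, and GOB minus ENT was 1.30 points. Both Sec-Pro minus both Ent-Pro libraries passed the threshold, at 0.469 points (exact McNemar p = 0.03896), where exclusion needed 50% of the site to be covered. That difference ran from -2.87 to 3.46 with 1 library left out. With the lists of a pair at equal length, which was chosen after seeing the data, DBZ-treated Sec-Pro minus Ent-Pro replicate 1 was -0.114 and Sec-Pro minus Ent-Pro H3K27ac -0.501 points (exact McNemar p = 0.0448). No paired analysis was possible because the Sec-Pro labels carry no replicate numbers; the McNemar tests pair a site with itself in 2 lists and do not pair libraries as replicates. The cause of these shifts was not tested beyond the fewer sites or peaks that each setting leaves.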

Other observations

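The 4395 sites were spread over all autosomes and the X chromosome. They made up between 11.4% (chromosome 13) and 16.1% (chromosome 5) of the Sec-Pro DHS of an autosome and 8.44% [6.67 to 10.6] of those of the X chromosome, where 64 of 758 DHS belonged to the set. The share of sites with a mark was between 14.5% and 22.4% on the autosomes. It was 26.6% on the X chromosome, where it rests on 17 marked sites of only 64 and was not tested.

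Most sites had no other of the 4395 close by, though other open sites were often near. With neighbours joined where at most 20 kb apart, 3332 sites (75.8%) had no other of the 4395 near them, and the other 1063 formed 466 groups, of which 372 were pairs. The group with the most sites held 8 within 34.3 kb at chr7:25703410-25737697. Of these, 1 was marked, by H3K4me2 in Rbpj-/- Sec-Pro, and the nearest ATOH1 peak was 11.4 kb or more from each. The next held 6 sites each, all unmarked. In chr10:79916331-79965832 they stood among 4 Ent-Pro DHS, and in chr9:106204254-106260214 no Ent-Pro DHS and 1 ATOH1 peak lay among them.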
